A study of Prunus persica with 21 samples.

Results

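WRKY33 (PRUPE_6G286000), WRKY46 (PRUPE_2G185100) and ZAT10 (PRUPE_1G424300) are 3 peach genes for transcription factors, picked by their identifiers from the 27107 genes of the count table. They were chosen with earlier results of these data known. RNA-Seq was done on leaf blades, without the central vein, of juvenile Big Top peach (Prunus persica) plants raised in vitro. The 7 groups were untreated leaves (t0) and leaves collected 1, 24 or 48 h after topical application of PpPep1 at 100 nM or of PpPep2 at 1000 nM, with 3 biological replicates each and 21 libraries in all. The labels call the t0 treatment mock, whereas the series design calls those plants untreated. Both peptides are synthetic copies of plant elicitor peptides of peach. No libraries of water-sprayed leaves at 1, 24 or 48 h were analysed here, so that spraying, time and peptide cannot be told apart in a comparison with t0.

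A further point bears on all results that involve PpPep2 at 1 or 24 h or PpPep1 at 48 h. The headers of 9 of the 21 columns went against the study's own library statistics, and these columns were read by the statistics: PpPep2 1 h was headed as PpPep1 48 h, PpPep2 24 h was headed as PpPep2 1 h, and PpPep1 48 h was headed as PpPep2 24 h. Each of the 21 columns matched the library it was read as, whereas 0 of these 9 matched the library named in the header. Depth ranged from 33231519 to 59317510 counts per library with a median of 43773982. Libraries of t0 and PpPep2 24 h shared the first flowcells, PpPep1 24 h was on the second, and the 1 h groups were spread over both. All 48 h libraries were on flowcells other than these, so that 48 h and flowcell cannot be told apart. The leaf identity of the samples could not be checked by marker genes, since no annotation used here pairs the identifiers with leaf markers.

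WRKY proteins are plant transcription factors that bind short promoter elements called W-boxes, which are common in defence genes. In Arabidopsis, WRKY33 is a substrate of mitogen-activated protein kinases and drives genes of the phytoalexin camalexin, and WRKY46 takes part in basal resistance with other WRKY proteins. ZAT10, also called STZ in Arabidopsis, is a zinc finger protein that represses transcription and is known from salt, drought and light stress. Genes of these kinds are among the early transcriptional responses of plants to microbial and endogenous elicitors.

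The study also designed a pair of real-time PCR primers on peach WRKY33, which are shown because they mark the transcript that its assay of this gene reads. Both are 20 bases long and are written 5′ to 3′, with no base singled out by capitals.
WRKY33 forward: ccggtgaggaaacatgtgga
WRKY33 reverse: cctcacagccatggacacat

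All 3 genes rose 1 h after topical application of either peptide, where 5.45% of the 18555 genes tested rose after PpPep1 and 6.19% after PpPep2. The largest rise of the 3 was that of WRKY33, by 77.7-fold after PpPep1 and 98.2-fold after PpPep2. WRKY46 rose 8.96-fold and 9.13-fold, and ZAT10 rose 7.65-fold and 7.11-fold. A gene was counted as a differentially expressed gene (DEG) at an adjusted p of less than 0.01 together with a log2 fold change (log2FC) of more than 1 in size, in edgeR's quasi-likelihood test over all 21 libraries. Because earlier results of these data were known when the 3 genes were chosen, their calls and ranks at 1 h are no independent evidence of the direction. In whole leaf blades a change in RNA per cell and a change in the share of cells of a type cannot be told apart.

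WRKY33 had 162, 210 and 225 CPM (counts scaled to library size) in the PpPep1 1 h libraries, against 2.08, 2.31 and 3.32 CPM in the t0 libraries. In the PpPep2 1 h libraries it had 322, 147 and 285 CPM. The lowest of these 6 libraries was far above the highest t0 library, and replicate 2 of PpPep2 was the lowest of the 6. In raw counts these levels were 6321 to 8819 for PpPep1 and 6675 to 14669 for PpPep2, against 100 to 139 for t0. The log2FC was 6.28 (SE 0.39, adjusted p = 5.42e-09) for PpPep1 and 6.62 (SE 0.39, adjusted p = 2.39e-09) for PpPep2. By log2FC, WRKY33 was number 42 from the top of the 18555 genes after PpPep1 and number 44 after PpPep2.

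WRKY46 had 102, 107 and 126 CPM in the PpPep1 1 h libraries, against 12.6, 10.5 and 14.4 CPM in the t0 libraries. In the PpPep2 1 h libraries it had 158, 71.6 and 112 CPM. The groups did not overlap with t0, although the PpPep2 replicates differed from each other by a coefficient of variation of 38.1%, compared with 11.4% for PpPep1. The log2FC was 3.16 (SE 0.25, adjusted p = 6.34e-08) for PpPep1 and 3.19 (SE 0.25, adjusted p = 3.87e-08) for PpPep2.

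ZAT10 had 144, 160 and 174 CPM in the PpPep1 1 h libraries, against 17.9, 21.1 and 23.6 CPM in the t0 libraries. In the PpPep2 1 h libraries it had 169.6, 105 and 169.6 CPM. Again no library at 1 h reached down to the t0 range, and replicate 2 of PpPep2 was the lowest of the 6, as for WRKY33 and WRKY46. The log2FC was 2.94 (SE 0.21, adjusted p = 8.83e-09) for PpPep1 and 2.83 (SE 0.21, adjusted p = 8.75e-09) for PpPep2.

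**Figure D1:**
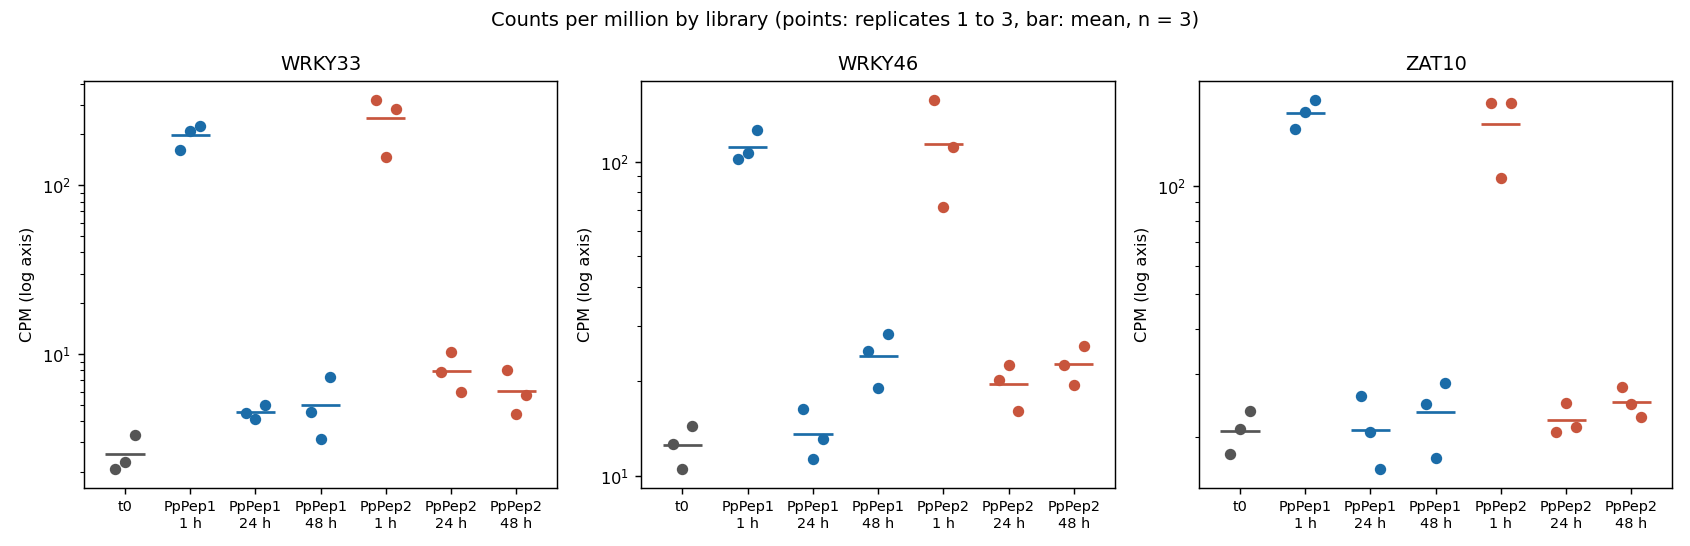
CPM of WRKY33, WRKY46 and ZAT10 (log axis) in each of the 21 libraries, by group, with points for the replicates and a bar for the mean (n = 3). For every gene the 6 libraries at 1 h lie above all others, and the 24 h and 48 h libraries lie far below them, with WRKY33 at 5.94 to 10.3 CPM in PpPep2 24 h against 2.08 to 3.32 CPM in t0, and WRKY46 at 19.1 to 28.2 CPM in the 6 libraries at 48 h against 10.5 to 14.4 CPM in t0.

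Within the first flowcells, where PpPep1 1 h had 1 library and t0 had 3, the difference in mean log2 CPM was 5.98 for WRKY33, 3.04 for WRKY46 and 2.80 for ZAT10. No PpPep2 1 h library was on the first flowcells alone. With the 9 columns taken as headed, the PpPep2 1 h group would be the libraries read here as PpPep2 24 h, with a log2FC of 1.65 for WRKY33, 0.66 for WRKY46 and 0.10 for ZAT10 and 0 of the 3 called. The PpPep1 1 h and t0 columns are not concerned. A fit without the 9 columns gave the same 3 DEG for PpPep1 at 1 h.

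By 24 h, all 3 genes had fallen from the 1 h level after both peptides, where 5.98% of genes tested fell between 1 and 24 h for PpPep1 and 6.34% for PpPep2. WRKY33 at 24 h stood at 2.28% of its 1 h mean CPM after PpPep1 and at 3.18% after PpPep2. The corresponding values were 12.1% and 17.2% for WRKY46, and 13.2% and 15.1% for ZAT10. For PpPep1, 24 h against 1 h, the log2FC was -5.46 (SE 0.37, adjusted p = 1.72e-08) for WRKY33, -3.04 (SE 0.25, adjusted p = 9.68e-08) for WRKY46 and -2.93 (SE 0.21, adjusted p = 1.14e-08) for ZAT10. For PpPep2 it was -4.97 (SE 0.35, adjusted p = 2.10e-08) for WRKY33, -2.54 (SE 0.24, adjusted p = 4.33e-07) for WRKY46 and -2.73 (SE 0.21, adjusted p = 1.54e-08) for ZAT10. Within the second flowcells, which held 3 libraries of PpPep1 24 h and 2 of PpPep1 1 h, the differences in mean log2 CPM were -5.58, -3.11 and -3.02 for WRKY33, WRKY46 and ZAT10. For PpPep2 there is no within-flowcell value, since its 24 h libraries were on the first flowcells and no PpPep2 1 h library was on those alone. Over the 14 alternatives other than the headers, its smallest falls were -4.33 for WRKY33, -2.03 for WRKY46 and -2.41 for ZAT10. Taken as headed, the PpPep2 columns gave 0 of 3 called between 1 and 24 h.

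Compared with t0, 0 of the 3 genes were DEG at 24 h after PpPep1, where 0.393% of genes tested rose, and 0 of 3 after PpPep2, where 1.01% rose. At an unadjusted p under 0.05 there were 1 and 2 genes in edgeR's test, and DESeq2 called 0 and 1. By p, WRKY33 was number 5173 of the 18555 genes after PpPep1 and number 522 after PpPep2, and WRKY46 was number 2239 after PpPep2. The gene that DESeq2 called was WRKY33 after PpPep2. It had 7.78, 10.3 and 5.94 CPM in the PpPep2 24 h libraries and 2.08, 2.31 and 3.32 CPM in the t0 libraries, which did not overlap and shared their flowcells. Its log2FC of 1.65 (SE 0.36) passed the threshold on size and missed that on adjusted p (0.011). It was called in 5 of 14 alternative settings other than the headers, with an adjusted p of 9.52e-05 in DESeq2 and 0.00873 with flowcell as a term, and the adjusted p over those settings ranged up to 0.066.

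After PpPep1, WRKY33 had 4.45, 4.12 and 5.01 CPM at 24 h, all above the highest t0 library, with a log2FC of 0.83 (SE 0.37, adjusted p = 0.151). The PpPep1 24 h and t0 libraries shared no flowcell, and the log2FC was 0.40 with flowcell as a term. That term was set by PpPep1 1 h alone, with 1 library on the first flowcells and 2 on the second. The value of 0.40 therefore hangs on 1 library. WRKY46 at 24 h had 16.3, 11.3 and 13.1 CPM after PpPep1 and 20.2, 22.6 and 16.1 CPM after PpPep2, against 12.6, 10.5 and 14.4 CPM in t0. Only the PpPep2 libraries lay wholly above t0, with a log2FC of 0.66 (SE 0.24, adjusted p = 0.125), and for PpPep1 the log2FC was 0.12 (SE 0.24, adjusted p = 0.787). ZAT10 at 24 h had 26.0, 20.7 and 16.3 CPM after PpPep1 and 20.7, 24.9 and 21.4 CPM after PpPep2, a range that overlapped that of t0 (17.9 to 23.6 CPM). The 95% interval of its log2FC was -0.41 to 0.43 for PpPep1 and -0.32 to 0.52 for PpPep2, so that a change of 2-fold lay outside both intervals.

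**Figure D2:**
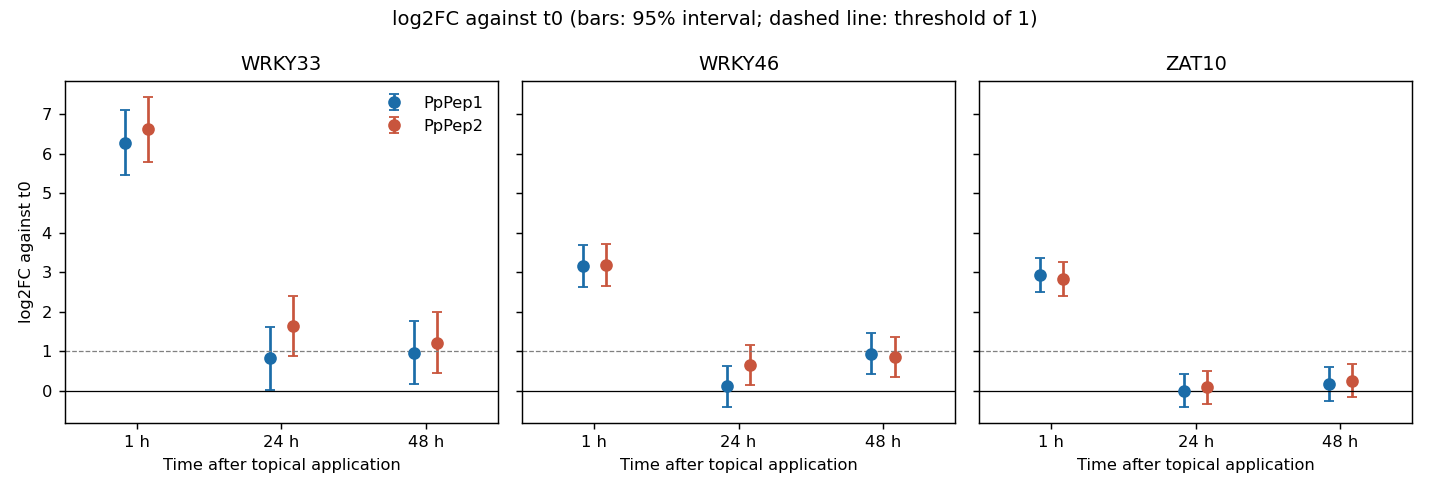
The log2FC of WRKY33, WRKY46 and ZAT10 against t0 for each peptide at 1, 24 and 48 h, with 95% intervals and a dashed line at the threshold of 1. All 6 values at 1 h lie above 2.8, and at 24 and 48 h WRKY33 lies highest of the 3 genes, at 1.65 for PpPep2 24 h, with ZAT10 between 0.01 and 0.26.

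At 48 h, 0 of the 3 genes were DEG against t0 after PpPep1, where 2.18% of genes tested rose, and 0 of 3 after PpPep2, where 1.42% rose. At an unadjusted p under 0.05 there were 2 genes for each peptide in edgeR's test, WRKY33 and WRKY46, and DESeq2 called 0 and 1. Such p values were common at 48 h. By p, WRKY33 was number 7278 of the 18555 genes after PpPep1 and number 3978 after PpPep2, and WRKY46 was number 4172 and number 3527. WRKY46 had 24.9, 19.1 and 28.2 CPM in the PpPep1 48 h libraries and 22.4, 19.5 and 25.9 CPM in the PpPep2 48 h libraries, all above the highest t0 library of 14.4 CPM. For PpPep1 its log2FC was 0.95 (SE 0.24, adjusted p = 0.00543), past the threshold on adjusted p and short of that on size. It became a call without t0 replicate 3 (log2FC 1.06) and without PpPep1 48 h replicate 2 (log2FC 1.09). For PpPep2 the log2FC of WRKY46 was 0.86 (SE 0.24, adjusted p = 0.013).

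WRKY33 had 4.56, 3.15 and 7.28 CPM in the PpPep1 48 h libraries and 8.02, 4.39 and 5.76 CPM in the PpPep2 48 h libraries. Replicate 2 of PpPep1 fell within the t0 range and the PpPep2 libraries lay above it. The log2FC was 0.97 (SE 0.38, adjusted p = 0.052) for PpPep1 and 1.23 (SE 0.36, adjusted p = 0.019) for PpPep2. The value for PpPep2 became a call with DESeq2 (adjusted p = 0.0023) and in the fit without the 9 re-read columns (adjusted p = 0.00322). ZAT10 had 24.7, 17.6 and 28.4 CPM after PpPep1 and 27.5, 24.7 and 22.8 CPM after PpPep2, with a log2FC of 0.18 (SE 0.20, adjusted p = 0.521) and 0.26 (SE 0.20, adjusted p = 0.352).

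Between 24 and 48 h, 0 of the 3 genes were called for PpPep1, where 3.59% of genes tested were called in either direction, and 0 of 3 for PpPep2, where 2.26% were. At an unadjusted p under 0.05 there were 1 and 0 genes, and DESeq2 called 0 in both steps. The 1 gene was WRKY46 after PpPep1, whose 48 h libraries (19.1 to 28.2 CPM) did not overlap its 24 h libraries (11.3 to 16.3 CPM), with a log2FC of 0.83 (SE 0.24, adjusted p = 0.017). By p it was number 3768 of the 18555 genes. With the columns taken as headed, all 3 genes would be called higher at 48 h than at 24 h after PpPep1, since the libraries read as PpPep2 1 h would stand for PpPep1 48 h.

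Over the 7 groups the order of levels was therefore led by the 1 h groups for each gene. For WRKY33 the means were 251 ± 92.0 CPM in PpPep2 1 h, 199 ± 32.97 in PpPep1 1 h, 8.00 ± 2.17 in PpPep2 24 h, 6.06 ± 1.83 in PpPep2 48 h, 4.99 ± 2.10 in PpPep1 48 h, 4.52 ± 0.45 in PpPep1 24 h and 2.57 ± 0.66 in t0 (SD, n = 3). For WRKY46 the means were 114 ± 43.3 CPM in PpPep2 1 h, 112 ± 12.8 in PpPep1 1 h, 24.1 ± 4.62 in PpPep1 48 h, 22.6 ± 3.23 in PpPep2 48 h, 19.6 ± 3.29 in PpPep2 24 h, 13.6 ± 2.54 in PpPep1 24 h and 12.5 ± 1.97 in t0 (SD, n = 3). For ZAT10 the means were 159 ± 14.9 CPM in PpPep1 1 h, 148 ± 37.0 in PpPep2 1 h, 25.01 ± 2.39 in PpPep2 48 h, 23.6 ± 5.50 in PpPep1 48 h, 22.3 ± 2.24 in PpPep2 24 h, 21.0 ± 4.87 in PpPep1 24 h and 20.9 ± 2.85 in t0 (SD, n = 3). In each order the 1 h groups did not overlap any group of another time and did not differ from each other beyond their spread, while the neighbours below them that were tested against each other did not pass the thresholds. Levels of different genes were not compared in these orders, since gene lengths were not used here.

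PpPep1 and PpPep2 were then compared at each time, at doses of 100 nM and 1000 nM, so that peptide and dose cannot be told apart. At 1 h, 0 of the 3 genes were called, where 0.0162% of genes tested were. At 24 h 0 of 3 were called, where 0.0377% were, and at 48 h 0 of 3, where 0.00539% were. At an unadjusted p under 0.05 there were 0, 2 and 0 genes in edgeR's test, and DESeq2 called 0 at each time. At 1 h the log2FC of PpPep1 over PpPep2 was -0.34 for WRKY33 (95% interval -0.96 to 0.28), -0.03 for WRKY46 (-0.51 to 0.46) and 0.11 for ZAT10 (-0.30 to 0.51). A 2-fold difference at 1 h therefore lay outside the interval of all 3 genes. Within the second flowcells, with 2 libraries of each peptide, the differences in mean log2 CPM were 0.09 for WRKY33, 0.38 for WRKY46 and 0.32 for ZAT10, so that the sign turned for both WRKY genes.

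The 2 genes at 24 h were WRKY33 and WRKY46, at number 2007 and number 2523 of the 18555 genes by p. WRKY33 had 4.45, 4.12 and 5.01 CPM in the PpPep1 24 h libraries and 7.78, 10.3 and 5.94 CPM in the PpPep2 24 h libraries, which did not overlap. The log2FC was -0.82 (95% interval -1.54 to -0.10, adjusted p = 0.257). For WRKY46 it was -0.53 (-1.04 to -0.02, adjusted p = 0.304), with overlapping libraries, and for ZAT10 -0.09 (-0.51 to 0.33, adjusted p = 0.880). PpPep1 24 h and PpPep2 24 h shared no flowcell, so there is no within-flowcell value. At 48 h the log2FC was -0.26 (-0.998 to 0.48) for WRKY33, 0.09 (-0.41 to 0.59) for WRKY46 and -0.08 (-0.50 to 0.33) for ZAT10. Taken as headed, the columns would give 3 of 3 genes higher for PpPep1 at 1 h and at 48 h, and the 24 h comparison would be that of PpPep1 24 h with the libraries read here as PpPep1 48 h.

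**Figure D3:**
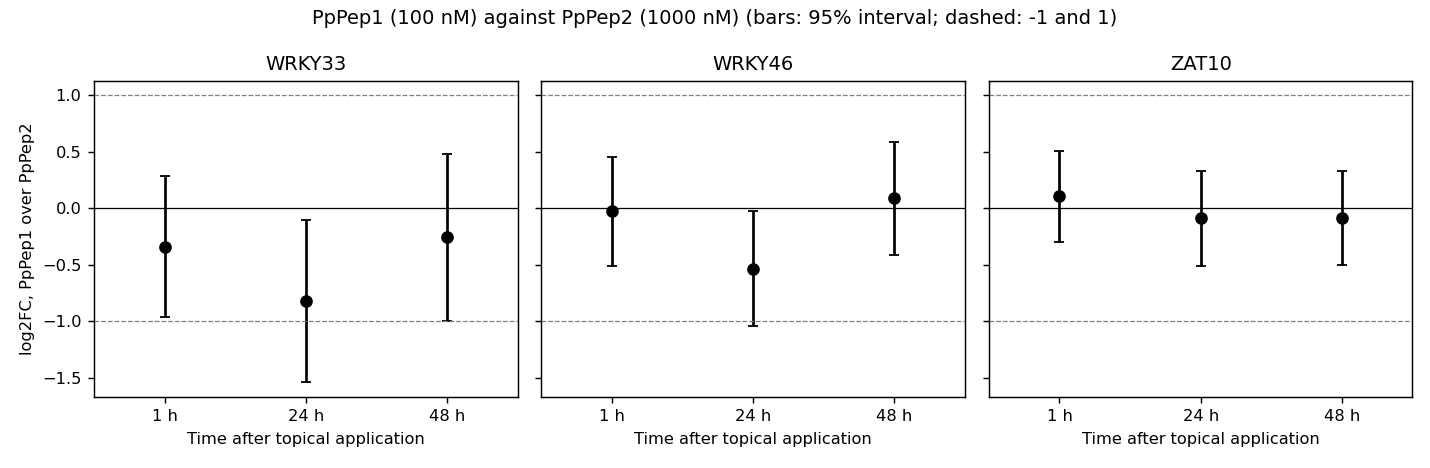
The log2FC of PpPep1 over PpPep2 for WRKY33, WRKY46 and ZAT10 at 1, 24 and 48 h, with 95% intervals and dashed lines at -1 and 1. At 24 h the intervals of WRKY33 and WRKY46 lie below 0, at -1.54 to -0.10 and -1.04 to -0.02, and neither gene passed the adjusted threshold.

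The 3 genes did not rise by the same factor. The log2 ratio of WRKY33 to WRKY46 averaged 0.98 ± 0.23 in the 6 libraries at 1 h and -2.28 ± 0.25 in the 3 libraries of t0 (SD), a difference of 3.26 (exact two-sided permutation test, p = 0.0238, adjusted over 3 pairs 0.0357). The log2 ratio of WRKY33 to ZAT10 averaged 0.51 ± 0.28 at 1 h and -3.02 ± 0.18 in t0, a difference of 3.53 (exact p = 0.0238, adjusted 0.0357). The smallest p that the 84 arrangements of 6 against 3 libraries allow is 0.0238. The log2 ratio of WRKY46 to ZAT10 was -0.47 ± 0.19 at 1 h and -0.74 ± 0.25 in t0, and this difference of 0.27 did not pass (exact p = 0.0952, adjusted 0.0952). The ranges of that ratio overlapped, from -0.60 to -0.10 at 1 h and from -1.01 to -0.51 in t0. These ratios hold as many PpPep2 as PpPep1 libraries, which the test took as 1 group. For WRKY33 to WRKY46 the mean at 1 h was 0.82 for PpPep1 (0.66 to 0.97) and 1.14 for PpPep2 (1.03 to 1.35). For WRKY33 to ZAT10 it was 0.31 (0.16 to 0.39) and 0.72 (0.48 to 0.92). The ranges of the peptides did not overlap in either pair.

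**Figure D4:**
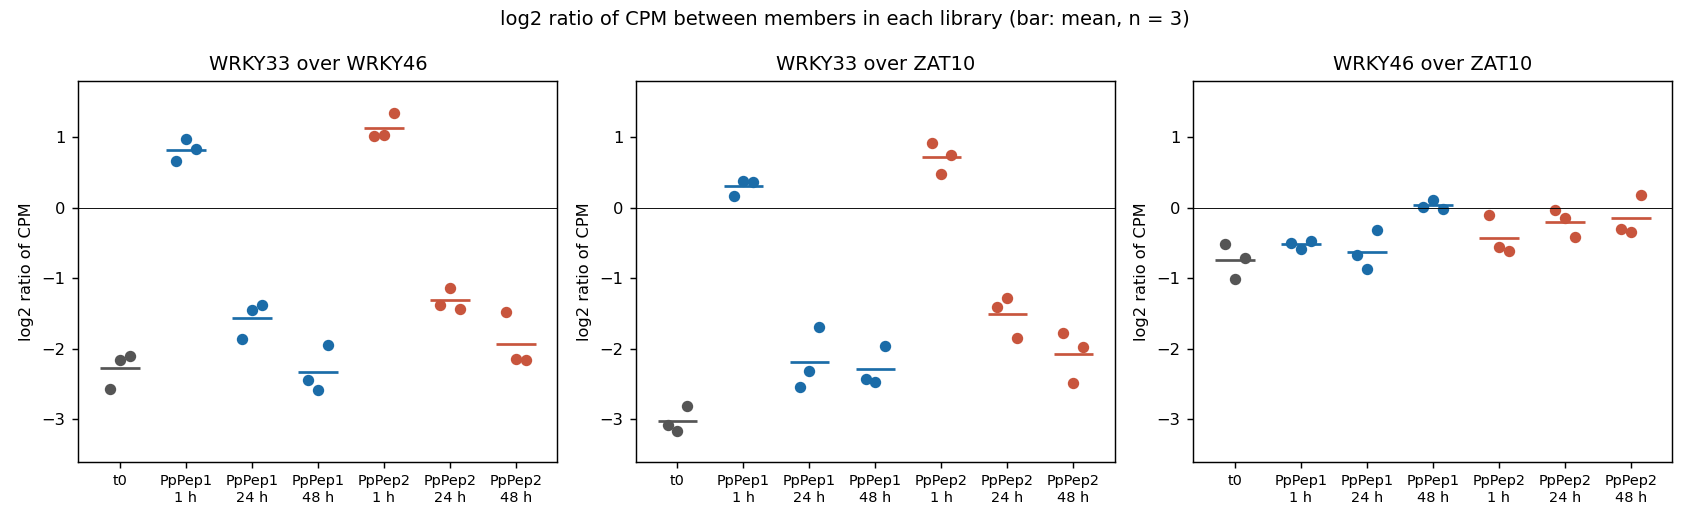
The log2 ratio of CPM between pairs of the 3 genes in each library, by group, with a bar for the mean (n = 3). The ratios of WRKY33 to WRKY46 and to ZAT10 lie above 0 in all 6 libraries at 1 h and below -1 in all others, and the ratio of WRKY46 to ZAT10 stays between -1.01 and 0.19 throughout. Gene lengths were not used, so that only the change of a ratio between groups is read and not its sign.

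The rise at 1 h was shared by most of the WRKY genes listed by the study. That list holds 26 genes named WRKY in the study's enrichment tables and network, which were chosen on these same libraries and are no independent evidence of the direction. Of the 26 genes, 25 passed the filter on low counts, and WRKY70 (PRUPE_6G295000), with at most 15 counts in a library, did not. At 1 h, 19 of the 25 rose after PpPep1, where 5.45% of genes tested rose, and 19 after PpPep2, where 6.19% rose. They were the same 19 genes, and 0 fell in edgeR's test, where 0.48% of genes tested fell after PpPep2. An unadjusted p under 0.05 in either direction was found for 22 and 23, and DESeq2 called 0 lower. The median log2FC of the list was 2.13 and 2.46, compared with -0.02 and -0.03 over all genes tested. Of the 23 genes other than WRKY33 and WRKY46, 17 rose after each peptide.

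WRKY33 had the second highest log2FC of the list after PpPep1 and WRKY46 the ninth. The highest was that of WRKY29, named after an Arabidopsis gene placed downstream of flagellin perception, at 6.32 (SE 0.45, adjusted p = 4.92e-09), with 189 to 335 counts per library in PpPep1 1 h and 2 to 5 in t0. WRKY40 followed at 5.59 (SE 0.60, adjusted p = 4.21e-06), with 148 ± 34.8 CPM in PpPep1 1 h and 3.11 ± 1.46 CPM in t0 (SD, n = 3). In Arabidopsis WRKY40 is a repressor of defence genes that acts with WRKY18. Both genes named WRKY53, PRUPE_2G307400 and PRUPE_5G117000, rose with a log2FC of 5.12 (SE 0.24) and 4.59 (SE 0.33). At the other end, WRKY44 had a log2FC of -0.79 (SE 0.06, adjusted p = 1.15e-08), short of the threshold on size, with 41.2 ± 2.18 CPM in PpPep1 1 h and 71.0 ± 2.41 CPM in t0 (SD, n = 3). In Arabidopsis WRKY44 is known from trichome and seed coat development. WRKY47 (log2FC -0.29, adjusted p = 0.633) and WRKY69 (log2FC 0.20, adjusted p = 0.681) were next above it and did not pass.

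**Figure D5:**
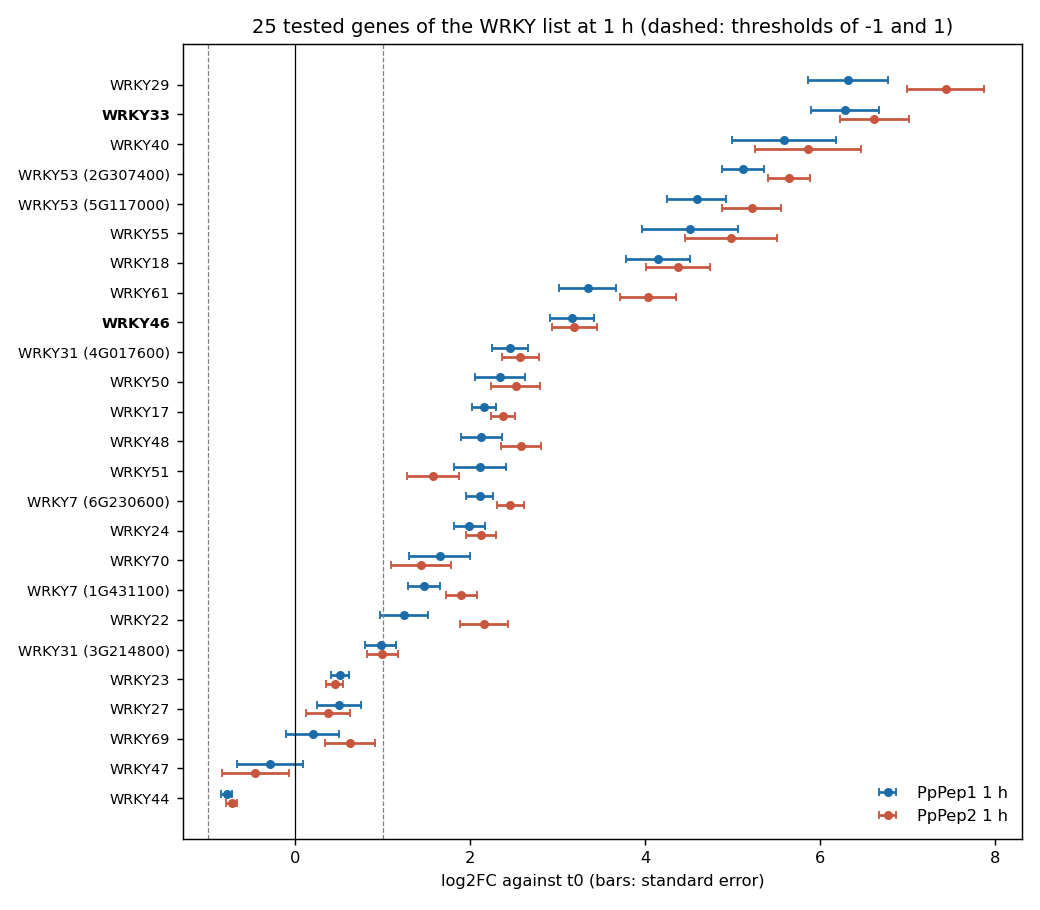
The log2FC against t0 at 1 h of the 25 tested genes of the WRKY list after PpPep1 and PpPep2, with standard errors, ordered by the PpPep1 value. WRKY33 and WRKY46, in bold, lie at 6.28 and 3.16 for PpPep1, and 19 of the 25 genes lie past the threshold of 1 for both peptides.

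At the later times 0 to 3 of the 25 WRKY genes were DEG against t0, all higher. At 24 h 0 were called after PpPep1, where 0.393% of genes tested rose, and 3 after PpPep2, where 1.01% rose. At an unadjusted p under 0.05 there were 6 and 14 in edgeR's test, and DESeq2 called 1 and 5. At 48 h 2 were called after PpPep1, where 2.18% of genes tested rose, and 2 after PpPep2, where 1.42% rose. At an unadjusted p under 0.05 there were 11 and 12, and DESeq2 called 2 and 4. Counts at an unadjusted p, for this and the other lists, stand without the share of all genes and are no result about a list. Such p values were common over all genes. WRKY33 was number 7278 of the 18555 genes by p at PpPep1 48 h and number 5173 at PpPep1 24 h. The called genes are named here after their values were seen. WRKY50 was higher at PpPep2 24 h (log2FC 2.00, SE 0.28, adjusted p = 0.000267), PpPep1 48 h (1.17) and PpPep2 48 h (1.63). WRKY55 was higher at PpPep2 24 h (log2FC 3.32, SE 0.60, adjusted p = 0.00179) and PpPep1 48 h (2.41), with 0 to 3 counts per library in t0. WRKY53 (PRUPE_2G307400) was higher at PpPep2 24 h (1.32) and WRKY48 at PpPep2 48 h (1.10). Each of these had also risen at 1 h.

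ZAT11 (PRUPE_6G249300) is the gene named ZAT beside ZAT10 in the table of the study's network, which uses these same libraries, and it also rose at 1 h. The study's text names a ZAT12 as well, to which no source used here ties a peach identifier under that name. ZAT11 had 24.1 ± 3.46 CPM in PpPep1 1 h and 22.4 ± 10.5 CPM in PpPep2 1 h, against 0.38 ± 0.15 CPM in t0 (SD, n = 3). The log2FC was 5.97 (SE 0.50, adjusted p = 1.51e-07) for PpPep1 and 5.87 for PpPep2. At 24 h neither ZAT gene was called after either peptide, where 0.393% of genes tested rose after PpPep1 and 1.01% after PpPep2.

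Most of a list of genes that stand before or beside these factors in elicitor signalling also rose at 1 h. Of 9 genes for receptors, receptor-like kinases, cytoplasmic kinases, mitogen-activated and calcium-dependent kinases taken from the study's text and tables, 8 rose at 1 h after each peptide, with a median log2FC of 1.76 for PpPep1 and 1.97 for PpPep2, where 5.45% and 6.19% of all genes tested rose. Of these genes, 6 came from the study's tables of these same libraries and the others from its text, so that their count is no independent evidence of the direction. MPK3, in Arabidopsis a kinase that phosphorylates WRKY33, was among them with a log2FC of 1.56 (SE 0.16, adjusted p = 4.03e-07) after PpPep1. CDPK11, a calcium-dependent protein kinase gene, had the largest log2FC of the 9 at 6.33 (SE 0.44), with 54.1 ± 13.3 CPM in PpPep1 1 h and 0.67 ± 0.07 CPM in t0 (SD, n = 3). BIR1, a receptor-like kinase gene known in Arabidopsis as a negative regulator of defence, followed at 3.55 (SE 0.21), then PpFLS2, the flagellin receptor gene, at 2.36 (SE 0.27) and CDPK8 at 2.15 (SE 0.18). The gene that was not called was PpPEPR1b, a receptor gene of the elicitor peptides, with 1.26 ± 0.08 CPM in PpPep1 1 h and 1.45 ± 0.32 CPM in t0 (SD, n = 3). At 24 h, 0 of the 9 were called after PpPep1, where 0.393% of genes tested rose (1 at an unadjusted p under 0.05, 0 by DESeq2). After PpPep2 1 of the 9 was called, where 1.01% rose (3 at an unadjusted p under 0.05, 1 by DESeq2). That gene was BIR1 (log2FC 1.36).

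Of 10 other regulators of transcription from the study's tables, 7 rose at 1 h after PpPep1 and 8 after PpPep2, where 5.45% and 6.19% of all genes tested rose. These genes too were chosen by the study on these libraries and are no independent evidence of the direction. The median log2FC was 2.78 and 2.77. HSFB1, a heat shock factor gene, had 23 to 27 counts per library in PpPep1 1 h, against 0 to 3 in t0 (adjusted p = 1.15e-05). PTI5, an ethylene response factor gene known from tomato, had a log2FC of 3.997 (SE 0.34), and VQ motif-containing protein 22 had 3.59 (SE 0.30). VQ proteins are partners of WRKY proteins in Arabidopsis. A second VQ gene (PRUPE_6G218300) had 9 to 19 counts per library in PpPep1 1 h and 0 to 2 in t0, and did not pass for PpPep1 (adjusted p = 0.013). The 1 gene that fell at 1 h was NAC002, after PpPep2 only by the thresholds (log2FC -1.08, adjusted p = 0.00958, where 0.48% of genes tested fell), with -0.69 (adjusted p = 0.085) after PpPep1. Between the peptides at 1 h 0 of the 10 were called (0 at an unadjusted p under 0.05, 0 by DESeq2), where 0.0162% of genes tested were. At 24 h basic leucine zipper 34 was called lower after both peptides (log2FC -2.11 and -2.16), where 0.534% of genes fell after PpPep1 and 0.296% after PpPep2. NAC002 was called higher at 48 h after both (log2FC 1.75 and 1.38), where 2.18% of genes tested rose after PpPep1 and 1.42% after PpPep2. NAC002 and basic leucine zipper 34 are named here after their values were seen.

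The genes whose pattern was most like that of each of the 3 were found by the Pearson r of log2 CPM over the 21 libraries, given as a description, since the 6 libraries at 1 h stand apart from the 15 others and share their treatment. For WRKY33 these were PRUPE_1G236600 (r = 0.996), a gene named LEAF RUST 10 receptor-like protein kinase-like (PRUPE_1G315900, r = 0.995), PTI5 (r = 0.994), PRUPE_7G177800 (r = 0.994) and PUB21 (r = 0.993), a U-box ubiquitin ligase gene. Over the 15 libraries that were not taken at 1 h, r with these 5 genes was 0.87 to 0.93. For WRKY46 none of the closest 5 carries a name in the sources used here, and the first of them were PRUPE_5G244500 (r = 0.987) and PRUPE_1G124000 (r = 0.986). For ZAT10 they included SLC25A27 (r = 0.992), a mitochondrial carrier gene, PUB28 (r = 0.991), another U-box gene, and 2MMP (r = 0.9896), with r of 0.77, 0.75 and 0.51 over the 15 libraries.

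Among the 3 genes themselves the r over the 21 libraries was 0.973 between WRKY33 and WRKY46, 0.980 between WRKY33 and ZAT10 and 0.969 between WRKY46 and ZAT10. Of 18554 other genes, WRKY46 was number 137 and ZAT10 number 77 in likeness to WRKY33, and ZAT10 was number 75 in likeness to WRKY46. Over the 15 libraries without those at 1 h the r of the 3 pairs was 0.68, 0.50 and 0.59.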

How the data were processed

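Stranded poly-A libraries were sequenced as read pairs. The deposited values are expected counts per gene, which the authors made with RSEM 1.3.0 (annotation NCBIv2.38) after alignment by STAR 2.5.3a (genome NCBIv2); they are whole numbers with no normalization. How they became whole numbers is not given in the sources used here. The authors compared groups with DESeq2 1.20.0. 0 columns of per-sample values were left unused.

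Each column's total was divided by the read pairs that the study's library statistics assign to single genes. A column matched a library at a ratio between 0.96 and 0.99 and with an equal number of genes holding 25% of the reads. This rule was set after its values were seen. All 21 columns matched the library they were read as, 19 of them no other library. The 9 re-read columns had ratios of 0.635 to 1.29 to the library named in their header.

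The counts of all 27107 genes, filtered with filterByExpr to 18555, were fitted with edgeR 4.0.16 (TMM, robust quasi-likelihood, R 4.3.3) over 21 libraries and 7 groups. Adjusted p (Benjamini-Hochberg) was taken over all genes tested, SE as log2FC divided by the root of F. CPM were scaled by TMM library sizes, and log2 CPM a prior count of 2. DESeq2 1.42.0, RLE scaling, other filters, a replicate block, flowcell as a term, the headers as printed and each library left out were alternatives. Ratios were tested by exact permutation (scipy 1.17.1). Of the table's identifiers 0 matched the RefSeq gene list, so that no protein, promoter or coordinates are given.

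The 3 genes, the gene lists and the tests were chosen with earlier results of these data known. Named were the 3 genes, of the WRKY list the 5 highest and 3 lowest log2FC at PpPep1 1 h, called ZAT genes, up to 4 genes of each other list by size of log2FC, and the 5 most alike genes. Gene names came from the study's text and tables. Some list genes share a name, and reads shared between near-identical copies were split by RSEM. Replicates are biological by the study's methods.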

Additional observations from a re-analysis of the deposited data

Results flagged for a closer look

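The response to the peptides relative to the same t0 libraries differed between 24 h and 1 h for all 3 genes, by edgeR's quasi-likelihood test of that difference. With the same t0 libraries on both sides, this is the comparison of 24 h with 1 h given above and not a second result. After PpPep1 the log2FC at 24 h minus that at 1 h was -5.46 for WRKY33, -3.04 for WRKY46 and -2.93 for ZAT10. After PpPep2 it was -4.97, -2.54 and -2.73. The libraries behind the PpPep2 values were read against their headers.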

How the results depend on the processing

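The rise of the 3 genes at 1 h and their fall by 24 h kept their direction and passed in all 14 or 15 alternatives other than the headers as printed. With the headers as printed the calls were 0 of 3 genes at PpPep2 1 h compared with t0 and 0 in the PpPep2 step of 24 h against 1 h, and 3 for PpPep1 48 h against t0, for PpPep1 48 h against 24 h and for PpPep1 against PpPep2 at 1 h and at 48 h, with 3 WRKY and 0 ZAT genes called at PpPep2 1 h. Under the headers the log2FC turned to 0.29 for WRKY46 and 0.077 for ZAT10 at PpPep2 24 h against 1 h, to 0.26 for WRKY33 and -0.088 for WRKY46 at PpPep2 48 h against 24 h, to 4.63 for WRKY33 and 2.51 for WRKY46 at PpPep1 against PpPep2 at 1 h, and to 5.39 for WRKY33 and 2.57 for ZAT10 at 48 h. The construction of that setting, which puts other libraries in these groups, accounts for these values.

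For PpPep2 24 h against t0, 1 gene (WRKY33) in place of 0 was called with a stricter filter (1 CPM or more in 3 or more libraries) and with only the groups compared. It was also called with flowcell as a term, in the 15 libraries not taken at 48 h without that term (chosen after seeing the data) and with DESeq2. For PpPep1 48 h against t0, 1 gene (WRKY46) was called with no threshold on log2FC, and 0 to 1 with a library left out. For PpPep2 48 h against t0, 1 gene (WRKY33) was called without the 9 re-read columns and with DESeq2. The cause was not tested.

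The other turns of sign were in values near 0 that were not called. At PpPep1 24 h against t0, WRKY46 turned to -0.065 with flowcell as a term, and ZAT10 to -0.0016 with RLE scaling, -0.0074 with no filter, -0.0074 with only the groups compared, -0.20 with flowcell as a term and -0.0015 with DESeq2. At PpPep1 against PpPep2 at 1 h, WRKY33 turned to 0.0092 and WRKY46 to 0.35 with flowcell as a term, and WRKY46 to 0.013 with the replicate block. In the flowcell setting the step between the first and second flowcells rests on 1 PpPep1 1 h library against 2.

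With 1 library left out at a time, the values that turned ranged from -0.031 to 0.24 for WRKY46 and -0.17 to 0.16 for ZAT10 at PpPep1 24 h against t0, from -0.00037 to 0.20 for ZAT10 at PpPep2 24 h against t0, and from -0.23 to 0.39 for WRKY33 at PpPep1 48 h against 24 h. For PpPep1 against PpPep2 they ranged from -0.26 to 0.28 for WRKY46 and -0.084 to 0.21 for ZAT10 at 1 h, from -0.27 to 0.069 for ZAT10 at 24 h, and from -0.041 to 0.23 for WRKY46 and -0.24 to 0.088 for ZAT10 at 48 h.

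The samples share only a replicate number. Over 63 pairs of same-numbered libraries of different groups the correlation of deviations from the group means was -0.25 to 0.25 with a median of 0.01, and 12 pairs were over 0.1. Over 126 pairs with other replicate numbers it was -0.30 to 0.33 with a median of -0.0024, and 17 pairs were over 0.1. The replicate block changed no call of the 3 genes. The ratio differences of WRKY33 kept their direction under all alternatives. With 1 of the 6 libraries at 1 h left out, the smallest p of the exact permutation test is 0.0357. Adjusted over the 3 pairs this is 0.0536 when 2 pairs reach it. With 1 of the 3 t0 libraries left out the smallest p is 0.0714.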
